A study of Mus musculus with 5 samples.

Results

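The PI3K, AKT and mTOR signalling genes described here are 37 listed genes that run from the insulin and IGF receptors to the translation factors downstream of mTOR complex 1. They were taken by symbol from the 55147 gene symbols of an RNA sequencing table of E14Tg2a mouse embryonic stem (ES) cells, without use of their values. Of the 37 genes, 36 reached a TPM (a measure of transcript abundance relative to the sample total) of at least 1 in at least 2 samples and were tested among 12518 genes in all. The exception was Phlpp2, which encodes a phosphatase of AKT. The study compared 3 samples of wild type (WT) cells with 2 samples of C3G KO (C3G-/-) cells. C3G is a guanine nucleotide exchange factor encoded by Rapgef1, and its exons 2 to 4 had been replaced with a cassette carrying puromycin resistance under the EF1α promoter, after which the surviving colonies were picked as clones. The labels do not say which clone each C3G KO sample came from. The study describes its WT cells as the E14Tg2a parent line, and its vector control clones are not among the samples here. Nucleofection, selection, clone and genotype therefore cannot be told apart. All samples were grown on gelatin with serum and LIF and received no treatment.

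PI3K is a lipid kinase that is recruited to activated receptors, either directly or through the insulin receptor substrates. Its product at the plasma membrane draws in the kinases PDK1 and AKT, and AKT then phosphorylates GSK3, the FOXO transcription factors, BAD and TSC2. The TSC complex holds back the small GTPase RHEB, which activates mTOR complex 1, and this complex drives translation through the S6 kinases and the eIF4E-binding proteins. In mouse ES cells, PI3K activity downstream of LIF is known for supporting self-renewal, and active FOXO proteins are known for switching on genes of insulin receptors and their substrates.

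The sequences just upstream of the start sites of Irs1, Irs2 and Igf1r are shown first, because these genes of the receptor step had the 3 largest falls among the members, a choice made after their values were seen. Each is the 250 bases before the RefSeq start on GRCm38.p6, read 5′ to 3′ on the strand of the gene. This start lay 23 bases from that of the gene's most abundant transcript in WT for Irs1, 471 for Irs2 and 570 for Igf1r. Irs1 lies on the minus strand with its window at chr1:82291440-82291689, Irs2 on the minus strand with its window at chr8:11008930-11009179, and Igf1r on the plus strand with its window at chr7:67952007-67952256. Capitals mark the E-box CACGTG and the GC box GGGCGG or CCGCCC, both searched on both strands.
Irs1: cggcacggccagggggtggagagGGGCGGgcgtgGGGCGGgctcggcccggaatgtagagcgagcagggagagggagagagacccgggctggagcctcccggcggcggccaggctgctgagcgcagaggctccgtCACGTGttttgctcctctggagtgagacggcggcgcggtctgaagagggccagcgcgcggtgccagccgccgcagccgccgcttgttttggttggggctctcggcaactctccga
Irs2: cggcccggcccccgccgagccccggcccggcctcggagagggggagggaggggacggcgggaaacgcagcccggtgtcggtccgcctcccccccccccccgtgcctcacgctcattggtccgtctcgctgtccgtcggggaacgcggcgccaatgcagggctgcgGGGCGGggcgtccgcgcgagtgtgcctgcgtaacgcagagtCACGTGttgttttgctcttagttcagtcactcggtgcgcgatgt
Igf1r: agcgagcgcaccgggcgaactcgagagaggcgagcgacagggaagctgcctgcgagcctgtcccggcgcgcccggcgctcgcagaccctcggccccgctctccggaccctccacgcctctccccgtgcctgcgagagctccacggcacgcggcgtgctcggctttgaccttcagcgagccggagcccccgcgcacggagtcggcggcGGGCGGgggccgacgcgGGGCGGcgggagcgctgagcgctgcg

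RefSeq windows of this kind were matched for 32 of the 37 members. Insr, Foxo4, Deptor, Rps6kb2 and Eif4ebp1 were not matched. A GC box stood in 23 of the 32 windows, against 32.7% of 32851 windows of the same length over all genes, which differ in base composition (median of 23.5 CpG and 65.4% GC in the member windows, 6 CpG and 52.4% GC in all). An E-box stood in 4 of them, against 6.02% of all windows, and these 4 were Irs1, Irs2, Rheb and Eif4e. No member window held the FOXO motif GTAAACA or its reverse complement TGTTTAC, which 3.17% of all windows hold, or the cAMP response element TGACGTCA, which 1.55% hold. Variants of the FOXO motif were not searched for, so their presence in these windows is not known from this search. For Rheb the RefSeq start lay 263 bases, and for Eif4e 17 bases, from that of the gene's most abundant transcript in WT. The E-boxes are given with 12 bases on either side. The base count from the RefSeq start to the first base of the motif was 115 for Irs1, 44 for Irs2, 96 for Rheb, and 228 and 64 for Eif4e.
Irs1: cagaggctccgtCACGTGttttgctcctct
Irs2: gtaacgcagagtCACGTGttgttttgctct
Rheb: gccgcgcgcggtCACGTGggtgtgttgttg
Eif4e, distal: ctcgccagcgacCACGTGatcacttttttt
Eif4e, proximal: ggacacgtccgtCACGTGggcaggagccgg
Irs1 and Irs2 were lower in C3G KO cells, whereas Rheb and Eif4e did not pass the test, so the 4 genes with an E-box did not share a call. A match of letters is a description and was not tested as a binding site.

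The deposited TPM summed to between 999998 and 1000001 in each sample, and read counts were not used here, so the depth is unknown and the number of samples limits the precision. Small RNAs took 56.1% to 61.9% of the TPM in WT and 73.2% and 62.3% in C3G KO. Values were therefore scaled by each sample's median ratio to the geometric mean over the samples, and the term scaled TPM refers to these values. Rapgef1 itself stood at 8.66, 8.45 and 8.73 scaled TPM in WT and at 6.34 and 6.13 in C3G KO (log2 fold change -0.41, adjusted p = 0.00444). The sum over the gene does not separate transcripts with and without the replaced exons. None of 6 ES cell markers passed the test in limma, with 2 of them higher at an unadjusted p under 0.05, and their summed level was 543 to 644 scaled TPM in WT and 673 to 681 in C3G KO. All 4 tested markers of fibroblasts or smooth muscle were lower, with sums of 41.1 to 46.2 in WT and 3.3 to 3.4 in C3G KO, and so were all 4 tested markers of simple epithelium or trophoblast, with sums of 148 to 179 and 16.8 to 19.5. Both tested markers of extraembryonic endoderm were higher, with sums of 4.0 to 4.1 and 8.7 to 10.9. Among the defining markers, Elf5 did not exceed 0.07 and Sox7 did not exceed 0.29 in any sample, and Col3a1 was listed at 0 in 1 C3G KO sample. Acta2, Col1a1, Krt7 and Cdx2 met the filter through WT samples alone and Cubn needed the C3G KO samples to meet it, so their calls are descriptions. The part of these markers in the results below was not tested.

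Of the 36 tested members, 10 were lower and 1 was higher in C3G KO cells, and 25 did not pass an adjusted p of 0.05. Over all tested genes, 16.6% were called lower and 14.1% higher, against 27.8% and 2.78% of the members. The members' median log2 fold change was -0.03, beside 0.01 for all tested genes. The 10 lower genes were Igf1r, Irs1, Irs2, Akt1, Akt2, Inppl1, Gsk3b, Foxo1, Foxo3 and Mlst8, and the gene called higher was Ddit4. Irs1 met the filter through the WT samples alone, since both C3G KO samples were below 1 TPM as deposited, so its count here is no support for a difference. These are levels in bulk RNA, in which fewer cells of a type and less RNA per cell cannot be told apart. In 15 of the 36 tested members both C3G KO samples lay below all WT samples, in 7 they lay above, and in 14 the groups overlapped. The same separations were met by 29.3% and 29.5% of all tested genes.

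The counts differed between scalings and after a joint correction for transcript length and GC content, which were not separated. With TPM as deposited the median of all tested genes moved to -0.55 and that of the members to -0.63, and 25 members were called lower and 0 higher, where 56.8% of all genes were called lower and 1.45% higher. The share of all calls that were higher went from 45.8% to 2.48% between the scaled and the deposited values. Fold changes fell with transcript length across 12514 genes of these samples (Spearman's rho = -0.31), and the members are long, with a median of 5572 nt for those called lower and 3877 nt for those not called, beside 2187 nt for all tested genes. After a correction for length and GC content in each sample, rho was -0.04, and 8 members were lower and 5 higher, where 15.7% of all genes were lower and 14.7% higher. The members' median was then 0.02. Irs2, Igf1r, Foxo3, Akt1 and Inppl1 were called lower under each of the 16 alternatives. Irs1 was called lower under the 15 in which it was tested, but it met the filter through the WT samples alone, so those calls are a description. Without WT replicate 2 or without C3G KO replicate 2 the count of lower members was 6.

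**Figure D1:**
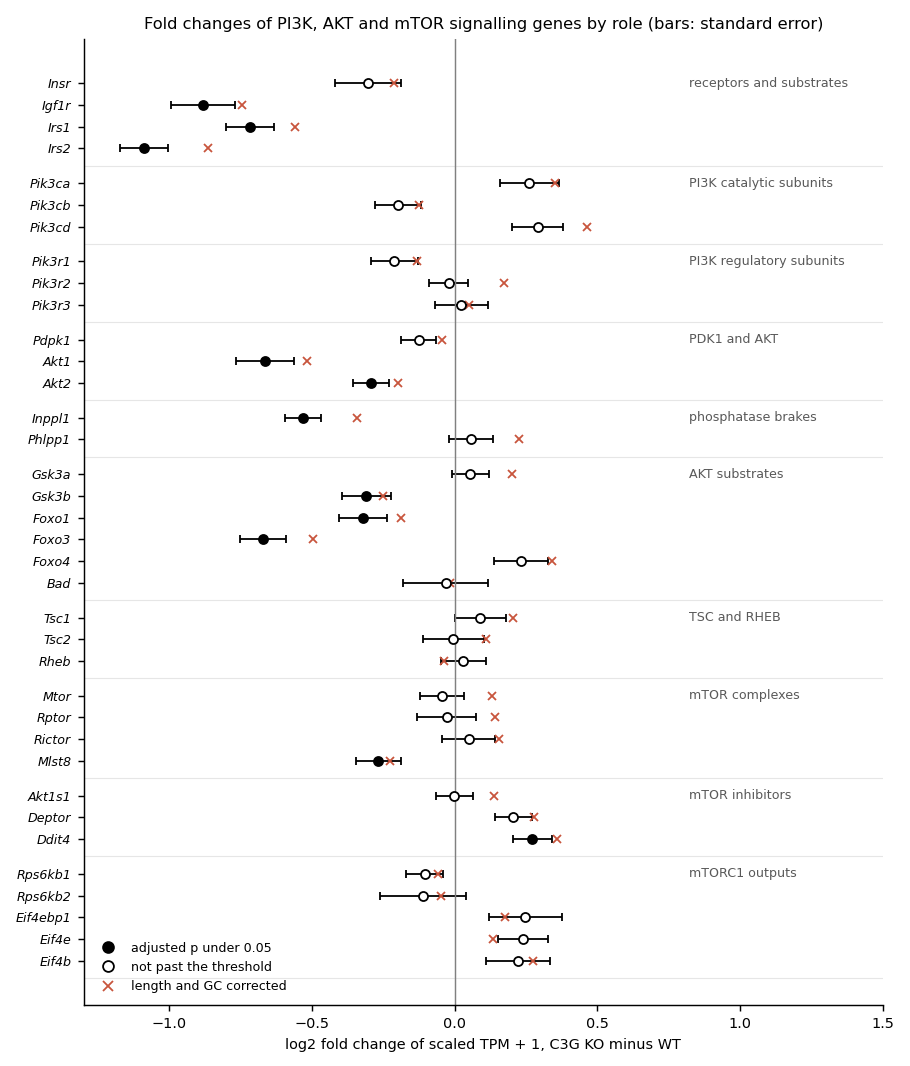
Log2 fold change of scaled TPM + 1 (x axis, C3G KO minus WT) of the 36 tested members, grouped by role, with bars for the standard error, filled circles for an adjusted p under 0.05, open circles for the rest, and crosses for the fold change after the length and GC correction. The filled circles are Igf1r, Irs1, Irs2, Akt1, Akt2, Inppl1, Gsk3b, Foxo1, Foxo3 and Mlst8 on the left and Ddit4 on the right. Irs2 lies farthest left at -1.09. The TSC and RHEB genes and Mtor, Rptor and Rictor have open circles near 0.

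At the receptor step Irs2, Igf1r and Irs1 were called lower and Insr was not, with Irs1 tested only because of its level in WT. Irs2, a docking protein that links the insulin and IGF1 receptors to PI3K (ENSMUSG00000038894, chromosome 8, 10984681 to 11008458 on GRCm38), stood at 5.79, 5.54 and 5.03 scaled TPM in WT replicates 1 to 3 and at 1.87 and 2.20 in C3G KO replicates 1 and 2. Its C3G KO mean was 37.3% of the WT mean, with a log2 fold change of -1.09 ± 0.08 (SE, adjusted p = 0.000568). On the scale of log2(scaled TPM + 1) this was the largest fall among the members, and the groups were far apart. Igf1r, the receptor tyrosine kinase for the insulin-like growth factors (ENSMUSG00000005533, chromosome 7, 67952827 to 68233668), stood at 4.25, 4.27 and 3.26 in WT and at 1.57 and 1.76 in C3G KO. The mean in C3G KO was 42.3% of that in WT (log2 fold change -0.88 ± 0.11, adjusted p = 0.00307). Irs1, the paralog of Irs2 (ENSMUSG00000055980, chromosome 1, 82233101 to 82291416), was near the detection filter, at 1.24, 1.22 and 1.05 in WT and at 0.31 and 0.33 in C3G KO. On the scaled values its C3G KO mean was 27.2% of the WT mean, which the pseudocount of 1 compresses to a log2 fold change of -0.72 ± 0.08 (adjusted p = 0.00230). A gene admitted to the test through its higher group had to differ, so these Irs1 values are a description. After the length and GC correction the fold changes were -0.87 for Irs2, -0.75 for Igf1r and -0.56 for Irs1, all past the threshold.

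Insr, the insulin receptor, stood at 3.10, 2.40 and 2.77 in WT and at 2.33 and 1.77 in C3G KO. The groups did not overlap, yet the log2 fold change of -0.30 ± 0.12 missed the threshold (adjusted p = 0.0962). Igf1r was the higher of the pair in every WT sample. Insr was the higher in C3G KO replicate 1, and the genes were level in C3G KO replicate 2, at 1.77 for Insr and 1.76 for Igf1r. Their most abundant transcripts did not change order, with Igf1r-201 at 0.99 and 1.17 and Insr-201 at 0.95 and 1.10 in C3G KO.

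None of the 6 PI3K subunit genes passed the test in limma, where 16.6% of all tested genes were called lower and 14.1% higher. Yet 3 of 3 catalytic and 1 of 3 regulatory genes had an unadjusted p under 0.05. Pik3ca, the catalytic subunit p110α, stood at 3.86, 4.70 and 5.09 in WT and at 5.59 and 5.65 in C3G KO (log2 fold change 0.26 ± 0.10, adjusted p = 0.107). It was called higher with the replicate number as a block and length and GC content corrected for (0.45, adjusted p = 0.0244). Pik3cb, the catalytic subunit p110β, lay the other way, at 6.68, 6.55 and 6.05 in WT and at 5.09 and 5.86 in C3G KO (-0.20 ± 0.08, adjusted p = 0.107). With protein-coding transcripts only Pik3cb was called lower (-0.31, adjusted p = 0.0122), a setting that leaves out its most abundant transcript, Pik3cb-203, annotated as a target of nonsense-mediated decay. Pik3cd, the catalytic subunit known best from leukocytes, was low, at 0.83, 0.73 and 0.62 in WT and at 1.10 and 1.11 in C3G KO. Its log2 fold change of 0.29 ± 0.09 missed the threshold (adjusted p = 0.0512), passed it once length and GC content were corrected for, at 0.46 (adjusted p = 0.0109), and was -0.04 with TPM as deposited. The regulatory subunits hold the catalytic subunits and bind phosphorylated receptors and substrates. Pik3r1 stood at 1.89, 1.75 and 2.05 in WT and at 1.39 and 1.61 in C3G KO (-0.21 ± 0.08, adjusted p = 0.101), and was called lower with protein-coding transcripts only (-0.25, adjusted p = 0.0306). Pik3r2, the most abundant of the 3, had overlapping groups at 5.33 to 5.92 in WT and 5.59 to 5.61 in C3G KO, and Pik3r3 overlapped as well, at 0.96 to 1.25 and 1.14 to 1.21.

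Of the kinases that act on the PI3K product, both AKT genes were lower and Pdpk1 did not pass. Akt1 (ENSMUSG00000001729, chromosome 12, 112653821 to 112674884) stood at 13.26, 14.53 and 16.76 scaled TPM in WT and at 8.81 and 9.12 in C3G KO. The C3G KO mean was 60.4% of the WT mean (log2 fold change -0.66 ± 0.10, adjusted p = 0.00570), and the lowest WT sample lay well above both C3G KO samples. Akt2, the paralog best known for insulin action on glucose uptake, stood at 12.17, 11.79 and 12.56 in WT and at 10.02 and 9.47 in C3G KO. Its fall was smaller, to 80.1% of the WT mean (-0.29 ± 0.06, adjusted p = 0.0183), and it missed the threshold without WT replicate 2 (adjusted p = 0.0555) and without C3G KO replicate 2 (adjusted p = 0.0798). Pdpk1, which encodes the AKT kinase PDK1, stood at 11.16, 10.89 and 11.49 in WT and at 9.96 and 10.36 in C3G KO (-0.13 ± 0.06, adjusted p = 0.168).

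Among the phosphatases that oppose the pathway, Inppl1 was lower and Phlpp1 did not pass. Inppl1, which encodes the lipid phosphatase SHIP2 (ENSMUSG00000032737, chromosome 7, 101822632 to 101838229), stood at 13.99, 14.12 and 14.04 in WT and at 9.04 and 9.78 in C3G KO. The WT samples were nearly identical and the C3G KO mean was 66.9% of theirs (-0.53 ± 0.06, adjusted p = 0.00236). Phlpp1, a phosphatase that removes phosphate from AKT, stood at 1.38, 1.39 and 1.43 in WT and at 1.37 and 1.62 in C3G KO. Its paralog Phlpp2, below the filter, stood at 0.76, 0.63 and 0.61 in WT and at 0.39 and 0.47 in C3G KO.

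Further down the pathway, 3 of 6 AKT substrate genes were lower, beside 16.6% of all tested genes. Foxo3, a transcription factor that AKT keeps out of the nucleus (ENSMUSG00000048756, chromosome 10, 42181841 to 42276755), stood at 12.61, 12.02 and 10.71 in WT and at 6.90 and 7.11 in C3G KO. The C3G KO mean was 59.5% of the WT mean (-0.67 ± 0.08, adjusted p = 0.00258). Foxo1 was less abundant, at 2.83, 2.68 and 2.43 in WT and at 1.76 and 2.08 in C3G KO (-0.32 ± 0.09, adjusted p = 0.0347). Foxo4, the third FOXO gene of the list, lay on the other side, at 5.09, 5.45 and 5.87 in WT and at 6.0 and 7.23 in C3G KO, and did not pass (0.23 ± 0.09, adjusted p = 0.114). Gsk3b, a kinase that AKT inhibits and whose inhibition is known to support ES cell self-renewal, stood at 8.75, 7.74 and 7.48 in WT and at 5.93 and 6.56 in C3G KO (-0.31 ± 0.09, adjusted p = 0.0385). Its paralog Gsk3a had overlapping groups, at 9.12, 9.11 and 9.74 in WT and at 9.44 and 9.99 in C3G KO. Bad, a promoter of apoptosis that AKT inactivates, ranged from 3.52 to 5.21 in WT and stood at 4.35 and 4.55 in C3G KO. The calls of Foxo1 and Gsk3b were each lost without WT replicate 1 (adjusted p = 0.0786 and 0.0709), without WT replicate 2 (0.0970 and 0.0850), without C3G KO replicate 1 (0.155 and 0.169) and without C3G KO replicate 2 (0.0549 and 0.0721). Foxo1 also missed it once length and GC content were corrected for (adjusted p = 0.0887).

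**Figure D2:**
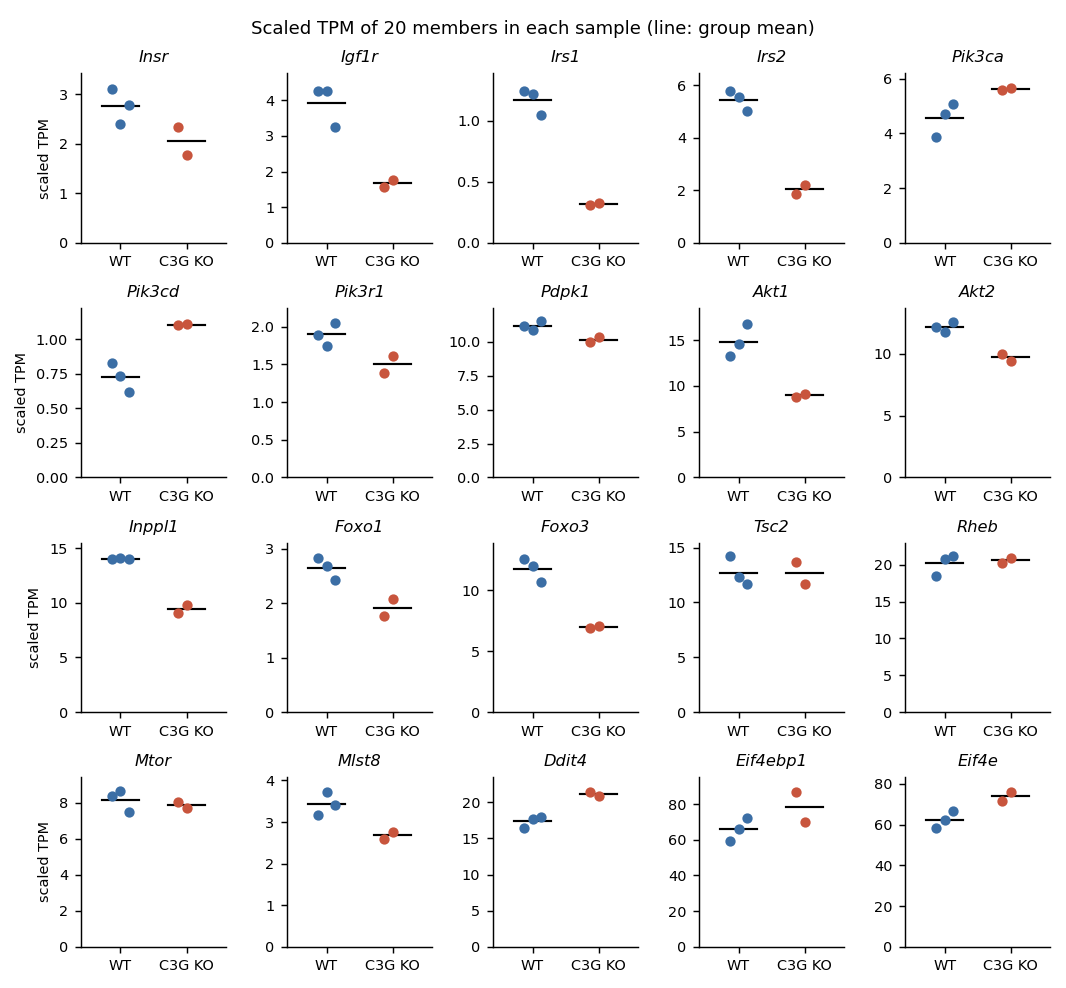
Scaled TPM (y axis, starting at 0) in each of the 3 WT samples (blue) and 2 C3G KO samples (red) for 20 members, with a line at the group mean and samples ordered by replicate from left to right. For Irs1, Irs2, Igf1r, Akt1, Inppl1 and Foxo3 the red points lie far below the blue ones, while for Tsc2, Rheb and Mtor the groups overlap.

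The TSC and RHEB genes and the large subunits of the mTOR complexes did not separate the groups. Tsc2, which holds the domain that inactivates RHEB, stood at 14.19, 12.29 and 11.69 in WT and at 13.69 and 11.65 in C3G KO, with a log2 fold change of -0.01 ± 0.11. Rheb itself stood at 18.48, 20.83 and 21.16 in WT and at 20.19 and 20.96 in C3G KO (0.03 ± 0.08). Tsc1, the partner that stabilises Tsc2, ranged from 3.34 to 4.17 in WT and from 3.96 to 4.12 in C3G KO. None of these 3 genes reached an unadjusted p under 0.05 in limma. Mtor, the kinase itself, stood at 8.36, 8.66 and 7.46 in WT and at 8.03 and 7.69 in C3G KO (-0.05 ± 0.08, adjusted p = 0.691). Rptor, which defines mTOR complex 1, ranged from 6.88 to 8.76 in WT and from 7.31 to 7.57 in C3G KO. Rictor, which defines mTOR complex 2, ranged from 8.07 to 9.91 in WT and from 9.02 to 9.31 in C3G KO. The small subunit Mlst8, shared by both complexes, was called lower, at 3.18, 3.72 and 3.40 in WT and at 2.59 and 2.77 in C3G KO (-0.27 ± 0.08, adjusted p = 0.0459). This call stood closest to the threshold and was lost with length and GC content corrected for (adjusted p = 0.0700) and without WT replicate 2 (0.135), WT replicate 3 (0.0852), C3G KO replicate 1 (0.163) or C3G KO replicate 2 (0.0971).

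Of the inhibitors of mTOR, Ddit4 was the only member called higher. Ddit4, a stress-induced protein that restrains mTOR complex 1 through TSC, stood at 16.47, 17.74 and 17.96 in WT and at 21.50 and 20.87 in C3G KO (0.27 ± 0.07, adjusted p = 0.0283), but with TPM as deposited its log2 fold change was -0.39. Leaving out WT replicate 1 (adjusted p = 0.0592), WT replicate 2 (0.0949), C3G KO replicate 1 (0.0975) or C3G KO replicate 2 (0.0711) ended the call. Deptor, an inhibitor that binds mTOR in both complexes, stood at 3.51, 3.43 and 3.32 in WT and at 3.93 and 4.26 in C3G KO. It missed the threshold (0.20 ± 0.07, adjusted p = 0.0604), passed it once length and GC content were corrected for (0.28, adjusted p = 0.0168), and was at -0.34 with TPM as deposited. Akt1s1, which encodes the mTOR complex 1 inhibitor PRAS40, overlapped at 7.01 to 7.70 in WT and 7.18 to 7.45 in C3G KO, with a log2 fold change of -0.00175.

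None of the 5 genes at the output of mTOR complex 1 passed in limma, with 1 of them at an unadjusted p under 0.05. Eif4b, Eif4ebp1 and Eif4e were the 3 most abundant members in WT, with means of 97.8, 65.7 and 62.4 scaled TPM. Eif4b, a cofactor of the eIF4A helicase, stood at 96.01, 97.64 and 99.71 in WT and at 101.81 and 127.75 in C3G KO, so that the spread between the C3G KO samples exceeded that within WT (0.22 ± 0.11, adjusted p = 0.184). Eif4e, the cap-binding protein, stood at 58.25, 62.39 and 66.70 in WT and at 71.46 and 76.18 in C3G KO (0.24 ± 0.09, adjusted p = 0.0828). Eif4ebp1, the repressor that binds it, had overlapping groups, at 59.08, 65.93 and 72.17 in WT and at 86.62 and 70.10 in C3G KO. The S6 kinase gene Rps6kb1 ranged from 9.73 to 10.60 in WT and from 9.37 to 9.48 in C3G KO (-0.11 ± 0.06, adjusted p = 0.258). Rps6kb2 ranged from 3.39 to 4.09 in WT, and its C3G KO samples, at 2.65 and 4.07, lay farther apart than the lowest and the highest WT sample.

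Ratios between related members were taken within each sample, because such a ratio does not depend on the scaling between samples. Of 13 pairs, 8 did not overlap between the groups, and 6 of them reached p = 0.1 in a two-sided exact permutation test, the smallest value that 3 against 2 samples allow (adjusted p = 0.217 over the 13 pairs). This test cannot pass a threshold of 0.05 with these samples, and the ratios were not fitted with limma. Of the 8 pairs, 5 lay above all WT samples and 3 below, and such separations were met by 29.5% and 29.3% of single tested genes, with no share computed over other pairs. The ratio of Insr to Igf1r was 0.730, 0.562 and 0.850 in WT and 1.49 and 1.01 in C3G KO. For Akt1 to Akt2 it was 1.09, 1.23 and 1.34 in WT and 0.879 and 0.963 in C3G KO, so Akt1 was the higher of the pair in all WT samples and Akt2 in both C3G KO samples. Gsk3a to Gsk3b went from 1.04, 1.18 and 1.30 to 1.59 and 1.52, and Phlpp1 to Phlpp2 from 1.82, 2.20 and 2.36 to 3.54 and 3.42. The ratio of Foxo1 to Foxo3 was close to constant in WT, at 0.225, 0.223 and 0.227, and stood at 0.255 and 0.292 in C3G KO. Irs1 to Irs2 likewise held at 0.215, 0.220 and 0.209 in WT and stood at 0.164 and 0.151 in C3G KO, a log2 difference of -0.45 that became 0.62 when 1 TPM was added to both genes before the ratio. Pik3ca to Pik3cb and Pik3r1 to Pik3r2 also did not overlap (p = 0.2 each by the exact permutation test). Tsc1 to Tsc2, Rictor to Rptor, Rps6kb1 to Rps6kb2, Eif4ebp1 to Eif4e and Pik3r3 to Pik3r2 overlapped.

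**Figure D3:**
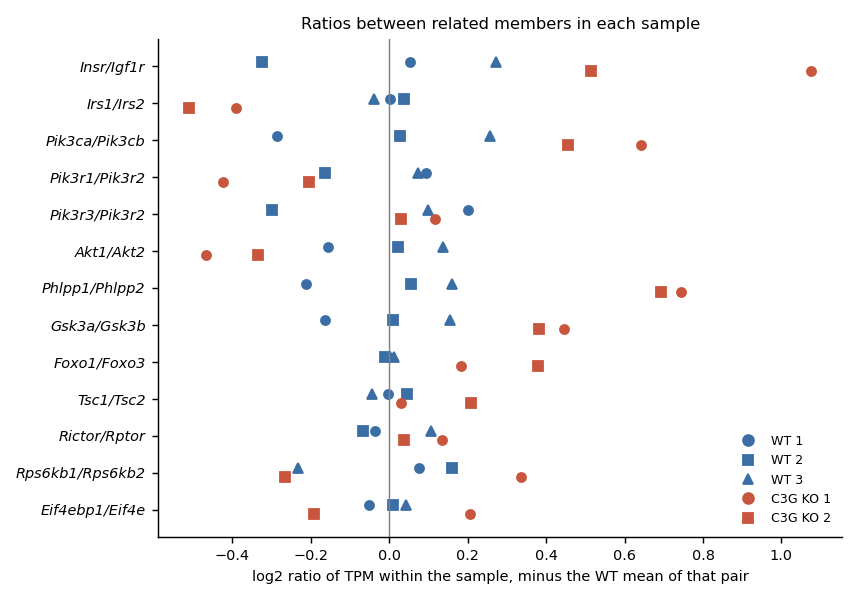
Log2 ratio of TPM between the members of each of 13 pairs within a sample, minus the WT mean of that pair (x axis), for 3 WT samples (blue) and 2 C3G KO samples (red), with the marker shape giving the replicate. Insr/Igf1r, Phlpp1/Phlpp2 and Gsk3a/Gsk3b have both red points to the right of all blue points, and Irs1/Irs2 and Akt1/Akt2 have both to the left.

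At the level of single transcripts, 74 of the members' 241 annotated transcripts passed the filter, and 33 members had at least 1 of them. Lower calls were made for 6 of these transcripts and a higher call for 1, where 5.07% of all 25166 tested transcripts were lower and 3.35% higher. The 6 were the most abundant transcript of each of Irs2, Igf1r, Irs1, Akt1, Inppl1 and Foxo3, all of them protein-coding. That of Irs1 met the filter through the WT samples alone, so its call is a description. Akt1-201, of 2690 nt, held steadier in WT than the gene did, at 11.33, 11.71 and 11.60 scaled TPM, and stood at 6.76 and 6.80 in C3G KO (log2 fold change -0.69, adjusted p = 0.00885). Foxo3-203 stood at 11.33, 11.12 and 10.07 in WT and at 6.22 and 6.55 in C3G KO (-0.68, adjusted p = 0.0138). The transcript called higher was Akt1s1-204, a protein-coding form at 0.91, 0.79 and 1.09 in WT and at 1.84 and 1.79 in C3G KO (0.55, adjusted p = 0.0413), while the most abundant form of the gene, Akt1s1-201, was at 3.05, 3.45 and 2.43 in WT and at 2.28 and 2.27 in C3G KO. Without WT replicate 2, 0 of the members' transcripts were called lower, with 8 at an unadjusted p under 0.05 in limma, leaving out either of the C3G KO samples left 1, and the higher call was lost whichever sample was left out.

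A wider list of 74 pathway genes outside the members gave 67 tested genes, of which 9 were lower (13.4%) and 15 higher (22.4%). Over all tested genes 16.6% were lower and 14.1% higher, or 56.8% and 1.45% with TPM as deposited. The median log2 fold change of the list was 0.03. Of the 9 lower genes, Castor2 met the filter through the WT samples alone, so its call is a description. With TPM as deposited the list had 36 lower and 0 higher genes (0 higher also at an unadjusted p under 0.05 in limma), and without C3G KO replicate 2 it had 5 lower and 7 higher, without C3G KO replicate 1 it had 5 lower, and without WT replicate 2 it had 9 higher. Grb10, an adapter that inhibits the insulin and IGF1 receptors, had the largest fall of the list, from 21.85, 24.76 and 25.54 scaled TPM in WT to 1.86 and 1.90 in C3G KO (-3.12 ± 0.08, adjusted p = 2.42e-05). Its C3G KO mean was 7.81% of the WT mean, so this inhibitor of the receptor step was lower together with Igf1r and Irs2. Gab1, a docking protein for PI3K, was the other lower adapter of 3 tested. Of the lipid phosphatases, Inpp5d, which encodes SHIP1, the paralog of SHIP2, was higher, at 11.95, 11.21 and 12.70 in WT and at 19.01 and 18.67 in C3G KO (0.62 ± 0.07, adjusted p = 0.00230), although its log2 fold change was -0.04 with TPM as deposited. Inpp5d thus lay opposite to its member paralog Inppl1. Inpp4a was lower (-0.40, adjusted p = 0.0293), but not with length and GC content corrected for (adjusted p = 0.0608), nor without WT replicate 1 (0.0669), WT replicate 2 (0.0856), C3G KO replicate 1 (0.115) or C3G KO replicate 2 (0.10). Pik3c2a, a class II PI3K, was lower (-0.35, adjusted p = 0.00980), though not without C3G KO replicate 2 (adjusted p = 0.0506).

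The amino acid sensing group holds both the machinery that brings mTOR complex 1 to the lysosome and proteins that restrain it, such as the sestrins. Of its 26 genes, 8 were higher (30.8%) and 2 lower (7.69%), beside 14.1% and 16.6% over all tested genes. With TPM as deposited 0 were higher and 9 lower, where 1.45% of all genes were called higher and 56.8% lower. Lamtor2, a subunit of the lysosomal anchor of the Rag GTPases, had the largest rise, from 13.35, 13.45 and 14.08 in WT to 22.06 and 24.97 in C3G KO (0.74 ± 0.08, adjusted p = 0.00141), and was at 0.08 and past no threshold with TPM as deposited. Lamtor4 and Lamtor5, further subunits of the anchor, were among the 8, whereas Lamtor1 and Lamtor3 did not pass (adjusted p = 0.0601 and 0.0895). Sesn2, a leucine sensor that restrains mTOR complex 1, fell from 19.18, 19.13 and 19.13 to 13.74 and 12.88 (-0.49 ± 0.06, adjusted p = 0.00286). The sestrins did not share a direction, since Sesn1 was among the 8 higher genes (0.30, adjusted p = 0.0243) and Sesn3 did not pass (-0.06, adjusted p = 0.598). Castor2, the other lower gene, was at 1.43, 1.29 and 1.04 TPM as deposited in WT and at 0.4 and 0.64 in C3G KO. It met the filter through the WT samples alone, so its call is a description. None of 8 energy sensing genes, the AMPK subunits and their activators, passed in limma, with 1 at an unadjusted p under 0.05.

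Among the kinases and partners of mTOR complex 2, Sgk1, a relative of AKT, was higher (23.1 ± 3.18 to 36.1 ± 1.79 scaled TPM, mean ± SD, n = 3 and 2; log2 fold change 0.63, adjusted p = 0.0125), but was at -0.05 with TPM as deposited and missed the threshold without C3G KO replicate 2 (adjusted p = 0.0647). Prr5, a subunit of the complex, was lower (-0.45, adjusted p = 0.00920). Of 12 genes of translation and autophagy, 1 was lower (8.33%) and 3 were higher (25%), beside 16.6% and 14.1% over all tested genes. With TPM as deposited 7 of them were lower and 0 higher, where 56.8% of all genes were called lower and 1.45% higher. Eif4g3, a scaffold of the cap-binding complex, fell by 0.60 on the log2 scale (adjusted p = 0.00959), with an adjusted p of 0.0579 without C3G KO replicate 1. Eef2, the elongation factor, was at 0.41 (adjusted p = 0.0422), with the sign turned at -0.28 with TPM as deposited and -0.13 after quantile normalization, and the call was lost without any 1 of the 5 samples (adjusted p from 0.0668 to 0.154). Of 5 tested genes known as FOXO targets, Bcl2l11, which encodes the apoptosis promoter BIM, was lower (-0.55, adjusted p = 0.00899, and 0.0557 without C3G KO replicate 2), and Ccng2, which encodes cyclin G2, was higher (0.46, adjusted p = 0.00455), with -0.11 as deposited. The other 3 did not pass.

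**Figure D4:**
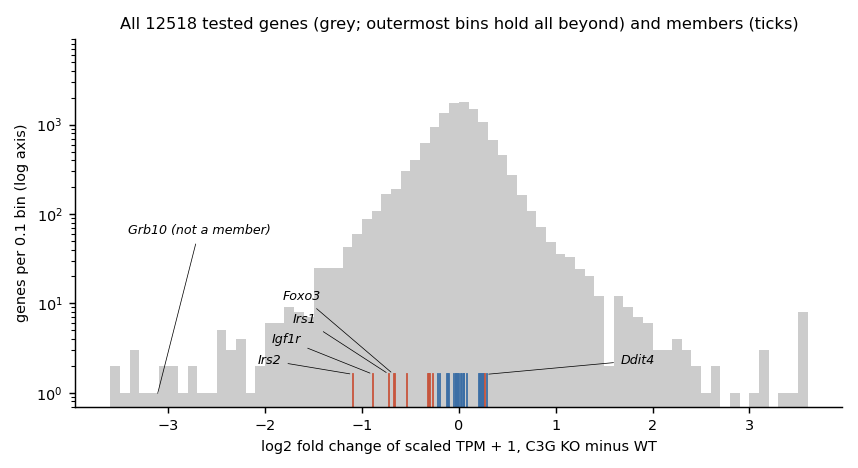
Histogram of the log2 fold changes of scaled TPM + 1 (x axis, C3G KO minus WT) of all 12518 tested genes, with the number of genes per bin on a log axis, and ticks below for the members, red where the adjusted p was under 0.05 and blue elsewhere. Most members sit within the central peak, Irs2 at -1.09 and Igf1r at -0.88 lie on its left flank, and Grb10, which is not a member, lies at -3.12.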

How the data were processed

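RNA sequencing of 3 WT and 2 C3G KO samples of E14Tg2a cells was analysed from a deposited table that lists 142647 Ensembl transcripts with their TPM in each sample. The authors made these TPM, and their methods name paired-end NovaSeq6000 reads, FastQC, and STAR on GRCm38. The submitters' processing notes add bcl2fastq (2.20), FastQC (0.11.7), STAR (2.5.1b) and RSEM (1.2.31), without giving the role of each. RSEM divides reads that fit several transcripts by estimate, so single isoforms and genes with near-identical copies are less certain than gene sums.

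Of the transcripts, 141524 were matched to GENCODE M21 and their TPM were summed by symbol, and 113 symbols hold more than 1 gene identifier. All per-sample columns were mapped to labelled samples. A gene entered the tests when 2 or more samples had a TPM of 1 or above. Since TPM are not counts, the DESeq2 test named in the study's methods was not run. Its median-of-ratios scaling was applied to the TPM, and the groups were compared with limma (3.58.1, R 4.3.3) on log2(scaled TPM + 1) with the trend option of eBayes, as two-sided tests with Benjamini-Hochberg adjustment over all tested genes and a threshold of 0.05. Adjusted p-values are from this test. A fold change on this scale understates the change of low genes. Related members were compared by exact permutation tests on log2 ratios. Transcripts were fitted in the same way. The scaled fit was tried on simulated data of 12254 genes for C3G KO against WT. It recovered 36 of 100 genes changed by 0.5 and 73 of 100 changed by 1 on the log2 scale, with 4 other calls. Only 200 genes were changed there, the noise was normal, and the spreads were shuffled between genes. In the real samples 16.6% of genes were called lower and 14.1% higher, so these recoveries need not hold for them. Which scaling suits the deposited samples was not tested. RefSeq start windows on GRCm38.p6 were searched for motifs.

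The members and the lists were chosen with earlier results of these data known. All members are named. Of the wider list, the largest fall and the largest rise past the threshold in each group are named. Gab1, Lamtor1, Lamtor3, Lamtor4, Lamtor5, Sesn1, Sesn3 and Castor2 were added after their values were seen. Of transcripts, those past the threshold and the most abundant form of a gene could be named. The study calls its samples independent, but neither it nor the labels say whether that means separate cultures or separate clones, so p-values measure the spread between these samples.

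The alternatives were TPM as deposited, quantile normalization, a pseudocount of 0.1 or of 5, a filter of 5 TPM or none at all, no trend, a correction of each sample for smooth trends (loess, span 0.5) on transcript length and GC content, the replicate number as a block, both together, protein-coding transcripts only, and leaving out each sample.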

Additional observations from a re-analysis of the deposited data

How the results depend on the processing

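Irs2, Igf1r, Foxo3, Akt1 and Inppl1 kept their direction and passed the threshold under all alternatives, while Akt2, Gsk3b, Foxo1, Mlst8 and Ddit4 did not. Irs1 did so under the 15 alternatives in which it was tested, but it met the filter through the WT samples alone, so those calls are a description. The depth is unknown because TPM carry no read counts, and genes at about 1 TPM, such as Irs1, Pik3cd and Phlpp2, stand closest to the limit of detection. With 3 against 2 samples and 3 residual degrees of freedom, a missed threshold does not show that a gene was equal in both groups. Alternatives that left out a sample to leave 1 C3G KO library assumed that it varies as the others do. Of the alternatives to the members' and named genes' fold changes, 612 kept direction and call, 57 lost the call, 29 gained it and 53 changed sign.

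With TPM as deposited, where the median of all genes shifted to -0.55, the calls were 7109 lower and 181 higher over all genes, 25 and 0 among the members, 36 and 0 in the wider list, and 15 and 0 among the members' transcripts, with 0 higher at an unadjusted p under 0.05 in limma for each of the 3 lists. Signs turned to -0.31 for Pik3ca, -0.0369 for Pik3cd, -0.34 for Pik3r3, -0.34 for Phlpp1, -0.57 for Gsk3a, -0.36 for Foxo4, -0.46 for Tsc1, -0.63 for Rheb, -0.58 for Rictor, -0.34 for Deptor, -0.39 for Ddit4, -0.44 for Eif4ebp1, -0.45 for Eif4e, -0.47 for Eif4b, -0.0375 for Inpp5d, -0.0484 for Sgk1, -0.28 for Eef2 and -0.11 for Ccng2. After the length and GC correction 5 members were higher, and signs turned to 0.17 for Pik3r2, 0.11 for Tsc2, -0.0377 for Rheb, 0.13 for Mtor, 0.14 for Rptor and 0.14 for Akt1s1. Quantile normalization gave 2 higher members, with signs turned to 0.0231 for Pik3r2, 0.0199 for Bad, -0.0334 for Rheb, 0.0258 for Akt1s1, -0.0782 for Eif4b and -0.13 for Eef2. A pseudocount of 5 and limma without the trend gave 2 higher members each, and protein-coding transcripts only gave 3. A filter of 5 TPM, which tests fewer genes, gave 1145 lower genes over all and 0 higher transcripts of members, with 3 at an unadjusted p under 0.05. Apart from the shift of the median and the smaller number of genes under the filter, the cause was not tested.

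The replicate number as a block gave 7 lower and 0 higher members, the latter with 4 at an unadjusted p under 0.05 in limma, and 0 lower and 0 higher transcripts, with 11 and 4 at an unadjusted p under 0.05. Signs turned to 0.0461 for Bad and 0.0302 for Akt1s1. Combined with that correction, the block gave 6 lower and 4 higher members, with 0.19 for Pik3r2, 0.0419 for Bad, 0.0566 for Tsc2, -0.00678 for Rheb, 0.0871 for Mtor, 0.0852 for Rptor, 0.16 for Akt1s1 and 0.000798 for Rps6kb2. The numbers were not shown to pair the samples, since deviations from the group means correlated at -0.18 for number 1 and 0.18 for number 2.

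Leaving out 1 sample at a time gave 909 to 1579 higher and 1385 to 1880 lower genes, 0 to 1 higher and 6 to 9 lower members, 7 to 14 higher and 5 to 9 lower genes of the wider list, and 0 higher and 0 to 5 lower transcripts of members. Fold changes that turned in sign ranged from -0.0433 to 0.0582 for Pik3r3, -0.0124 to 0.14 for Phlpp1, -0.18 to 0.0443 for Bad, -0.11 to 0.11 for Tsc2, -0.0312 to 0.0631 for Rheb, -0.0938 to 0.0584 for Rptor, -0.0168 to 0.12 for Rictor, -0.0361 to 0.0285 for Akt1s1 and -0.35 to 0.13 for Rps6kb2. Among the ratios, the difference of Rps6kb1 to Rps6kb2 was -0.27 without C3G KO replicate 1 and 0.34 without C3G KO replicate 2.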
